A study of Homo sapiens
Mus musculus and Mus musculus and Homo sapiens with 3 samples.

Results

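The expression of 10 genes of the WNT pathway was followed in human and mouse stem cell cultures under motor neuron differentiation. The genes are the secreted antagonists SFRP1, SFRP2 and FRZB, the ligands WNT5A, WNT5B, WNT7A and WNT7B, the transcription factors LEF1 and TCF7L2, and the feedback gene AXIN2. The genes were chosen by name, with earlier results of these data known. All 10 were among the 15472 gene symbols that the files of both species held. All 10 passed a count filter that was run once over all cell classes and both species. A gene could therefore be tested in a class or species in which it was almost absent.

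WNT proteins are secreted lipid-modified ligands that bind Frizzled receptors, and in the canonical branch they stabilise beta-catenin, which joins transcription factors of the TCF/LEF family at target genes. Secreted Frizzled-related proteins (SFRPs, and FRZB, also called SFRP3) carry a Frizzled-like domain and can bind WNT proteins outside the cell. In the developing spinal cord, WNT signals from the dorsal midline act on growth and patterning, while the ventral progenitors that give rise to motor neurons form under Sonic hedgehog and are marked by OLIG2. The most ventral neural progenitors are marked by NKX2-2.

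The human cells were the line NCRM1 (human replicate 1) and the line RUES1 (human replicate 2), both given as iPS cells in the labels, and the mouse cells were C57BL/6 ES cells (mouse replicates 1 and 2). All were put through an in vitro motor neuron differentiation as embryoid bodies, and all carried a lentiviral GFP reporter under the CAGGS promoter with a 6 bp barcode. Embryoid bodies were sampled every 48 h in human and every 24 h in mouse, dissociated, sorted for GFP and profiled with 10x Genomics 3′ single-cell RNA sequencing. The 3 samples gave 4 library parts, because human replicate 1 and mouse replicate 1 were 1 mixed library deposited apart by species. The day of each cell was not analysed here, so a difference between classes or species can also hold a difference in day. The labels do not say that replicates were separate cultures, and the human lines differ. A p-value between species below therefore measures only the spread between these library parts within a class. A p-value between classes measures only how class differences vary from part to part, pooled over all classes and both species. Classes of the same part come from the same library and are not independent cultures.

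The parts held 2407 and 2044 human cells and 1881 and 2783 mouse cells, with total depths of 28577630, 32803173, 38166382 and 83969715 UMIs (molecules counted once by their identifier). After filters, 1927, 1461, 1744 and 2521 cells reached the 7000 UMIs to which each cell was thinned for sorting into classes. Human replicate 1 and mouse replicate 1 shared 60 cell barcodes, which were left out of both, and no other pair of parts shared more than 2.

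Cells were sorted into 7 classes by the transcripts of STMN2 (a neuronal microtubule regulator), COL1A2 (a fibrillar collagen of mesenchyme), NEUROG2 (the neurogenic factor of motor neuron progenitors), SOX2, OLIG2 and NKX2-2. The classes were COL1A2-positive cells (88 and 167 human cells, 0 and 33 mouse cells), STMN2-positive neurons (356 and 384 human, 217 and 457 mouse) and NEUROG2-positive cells (514 and 367 human, 393 and 381 mouse). SOX2-positive progenitors were split into OLIG2 NKX2-2 double-positive (12 and 29 human, 19 and 16 mouse), NKX2-2-only (0 and 34 human, 49 and 19 mouse), OLIG2-only (378 and 238 human, 249 and 164 mouse) and double-negative cells (291 and 169 human, 406 and 672 mouse). A factor counted as absent when a thinned cell had no UMI of it. Cells with few OLIG2 or NKX2-2 transcripts can therefore sit among the double-negative cells, and their share was not estimated. Values below are in CPM, the UMIs of a gene summed over the cells of a class in a part and scaled by the total UMIs of those cells, with replicate 1 first.

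Markers that had no part in the sorting were compared with the class names. The summed level of 6 neuronal genes was 1448 and 2114 CPM in human neurons and 5370 and 6837 CPM in mouse neurons, while the OLIG2-only progenitors held 43.2 and 118 CPM (human) and 245 and 218 CPM (mouse). Motor neuron genes summed to 468 and 787 CPM in human neurons and 544 and 1003 CPM in mouse neurons, and the share of motor neurons within the class was not estimated. The mesenchymal genes summed to 1244 and 2340 CPM in COL1A2-positive cells of human and to 6280 CPM in those of mouse. The 7 progenitor genes summed to 5005 and 8585 CPM in human COL1A2-positive cells, against 3535 and 6875 CPM in human double-negative progenitors. Most of that sum was VIM, an intermediate filament gene that mesenchymal cells also express, at 4828 and 8189 CPM in COL1A2-positive cells, against 1855 and 4802 CPM. The neural factor PAX6 stood at 0 and 0.632 CPM in human COL1A2-positive cells, against 85.4 and 26.4 CPM in human double-negative progenitors. Double-negative progenitors were not purely neural: 4 epithelial genes summed to 153 and 357 CPM in the human parts and to 10.99 and 92.6 CPM in the mouse parts, and the mesenchymal list reached 272 CPM in human replicate 2.

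The secreted antagonists were lower in neurons than in OLIG2-only progenitors, except FRZB. SFRP1 stood at 51.6 and 48.2 CPM in human neurons, against 124 and 168 CPM in human OLIG2-only progenitors. In mouse it stood at 31.5 and 22.9 CPM in neurons, against 170 and 122 CPM in OLIG2-only progenitors. The classes did not overlap in either species. SFRP1 fell by 1.48 ± 0.15 on the log2 scale in human (edgeR quasi-likelihood test, Benjamini-Hochberg adjusted p = 1.43e-07) and fell by 2.53 ± 0.16 in mouse (adjusted p = 2.55e-10). The value after ± is the SE, which for class contrasts comes from the fit over all parts and classes. The interaction of class and species, human minus mouse, was 1.04 ± 0.22 (adjusted p = 0.00227), a smaller drop in human. Within the progenitor and NEUROG2-positive classes SFRP1 lay between 98.4 and 168 CPM in the human parts and between 71.7 and 218 CPM in the mouse parts.

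SFRP2 varied more between replicates than SFRP1 in the OLIG2-only progenitors of both species. It stood at 62.9 and 119 CPM in human neurons, against 230 and 549 CPM in human OLIG2-only progenitors. Mouse neurons held 25.8 and 13.8 CPM of SFRP2, against 121 and 301 CPM in mouse OLIG2-only progenitors. Each neuron value lay below both progenitor values of its species. SFRP2 fell by 1.99 ± 0.38 on the log2 scale in human (edgeR adjusted p = 0.000245) and fell by 3.52 ± 0.45 in mouse (adjusted p = 1.69e-06), and the difference between species, 1.54 ± 0.57, missed the threshold (adjusted p = 0.0727). That difference passed it without mouse replicate 1 (2.51, adjusted p = 0.00515). The drop appeared in the share of cells too: at 7000 UMIs per cell, SFRP2 was detected in 29.5% (exact 95% interval 24.8 to 34.5) and 35.7% (30.9 to 40.7) of human neurons, against 63.5% (58.4 to 68.4) and 73.1% (67.0 to 78.6) of human OLIG2-only progenitors. The mouse shares were 14.7% (10.3 to 20.2) and 7.66% (5.39 to 10.5) of neurons, against 44.2% (37.9 to 50.6) and 62.8% (54.9 to 70.2) of OLIG2-only progenitors. Without thinning, the neuron shares were 38.2% and 49.0% in human and 20.7% and 18.4% in mouse, against 76.7% and 92.0% and against 71.1% and 81.7%. The lowest human share was in COL1A2-positive cells, at 11.4% (5.59 to 19.9) and 18.6% (13.0 to 25.3), or 20.5% and 33.5% without thinning. These intervals cover counting error only.

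FRZB, the remaining antagonist, was at lower levels. In human it stood at 15.8 and 11.6 CPM in neurons, against 25.1 and 13.0 CPM in OLIG2-only progenitors. The log2 difference of -0.39 ± 0.45 did not pass (edgeR adjusted p = 0.522). In mouse OLIG2-only progenitors FRZB had 2 and 1 UMIs in all, so its fitted log2 difference in mouse neurons (2.80 ± 1.25, adjusted p = 0.0712) rests on a near-empty class. Mouse replicate 1 had 0 FRZB UMIs in neurons and mouse replicate 2 stood at 4.39 CPM, and leaving out any of human replicate 1, human replicate 2 or mouse replicate 1 took the adjusted p below 0.05 (0.0311, 0.0238 and 0.04998). Without mouse replicate 2 the direction turned (-3.84, adjusted p = 0.629), so no direction is read for mouse.

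**Figure D1:**
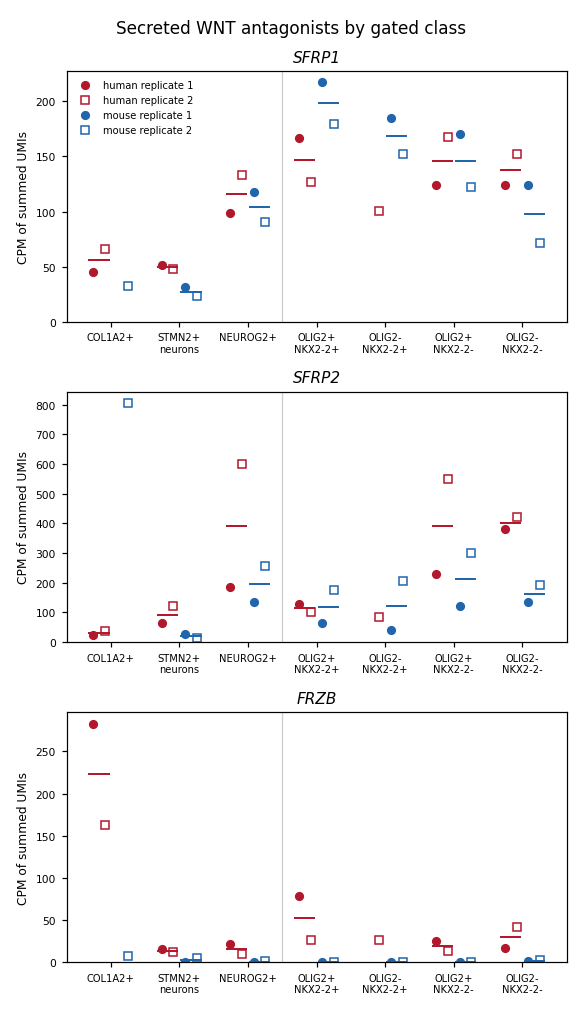
CPM of summed UMIs for SFRP1, SFRP2 and FRZB in each class, with human (red) and mouse (blue) parts as points (filled circle for replicate 1, open square for replicate 2) and a bar at the mean of the parts of a species. SFRP1 and SFRP2 sit low in neurons and in human COL1A2-positive cells, FRZB sits at 283 and 163 CPM in human COL1A2-positive cells, and the only mouse part with COL1A2-positive cells has SFRP2 at 805 CPM.

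Among the ligands, the WNT7 pair was higher in OLIG2-only progenitors than in neurons, from which it was almost gone. After thinning, only a minority of SOX2-positive progenitors had either gene detected. For WNT7A it was 66 of 681 and 77 of 470 human cells, and 73 of 723 and 33 of 871 mouse cells. For WNT7B it was 25 of 681 and 12 of 470 human cells, and 49 of 723 and 49 of 871 mouse cells. WNT7A, which can signal through the canonical branch, stood at 2.63 and 1.35 CPM in human neurons, against 18.2 and 16.9 CPM in human OLIG2-only progenitors. Mouse neurons held 0.945 and 0.0935 CPM, against 14.3 and 6.68 CPM in mouse OLIG2-only progenitors. No neuron value overlapped a progenitor value, and WNT7A fell by 3.19 ± 0.44 on the log2 scale in human (edgeR adjusted p = 8.32e-06) and fell by 4.79 ± 0.62 in mouse (adjusted p = 3.05e-06). WNT7B, its close relative, had 1 UMI over all human neurons and 52 over human OLIG2-only progenitors. By counts its level was 50.8 times higher in the OLIG2-only progenitors (exact 95% interval 8.72 to 2043), with an edgeR adjusted p of 0.000395. Intervals of ratios by counts, here and below, pool the UMIs of both parts. They cover counting error only, not the spread between parts or cells. In mouse, WNT7B stood at 0.315 and 0.842 CPM in neurons, against 16.0 and 17.9 CPM in OLIG2-only progenitors, and fell by 4.57 ± 0.61 (adjusted p = 3.45e-06).

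The WNT5 pair, which is known mainly for non-canonical signalling, was less uniform. WNT5A stood at 0 and 1.20 CPM in human neurons, against 3.38 and 5.20 CPM in human OLIG2-only progenitors. Mouse neurons held 5.36 and 1.40 CPM of WNT5A, against 5.32 and 8.35 CPM in mouse OLIG2-only progenitors. The human classes were apart, while in mouse replicate 1 neurons and progenitors were level. The log2 change was -2.65 ± 0.70 in human (edgeR adjusted p = 0.00418) and -1.44 ± 0.52 in mouse (adjusted p = 0.0245). Neither call was stable: the human adjusted p was 0.0567 without human replicate 1, and the mouse change was -0.14 (adjusted p = 0.949) without mouse replicate 2.

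WNT5B was at 10.3 and 22.7 CPM in human neurons, against 6.75 and 19.1 CPM in human OLIG2-only progenitors, higher in neurons within each part but overlapping across parts, with a log2 difference of 0.44 ± 0.27 (edgeR adjusted p = 0.194). In mouse, its neurons held 5.67 and 3.27 CPM, against 12.5 and 13.1 CPM in OLIG2-only progenitors, and the level fell by 1.76 ± 0.30 (adjusted p = 6.23e-05). The interaction, human minus mouse, was 2.20 ± 0.41 (adjusted p = 0.000891), and it was 1.71 with an adjusted p of 0.0636 without mouse replicate 2. Human replicate 2 was above human replicate 1 for WNT5B in each of the 6 classes that both held, for example 28.8 against 5.14 CPM in double-negative progenitors.

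**Figure D2:**
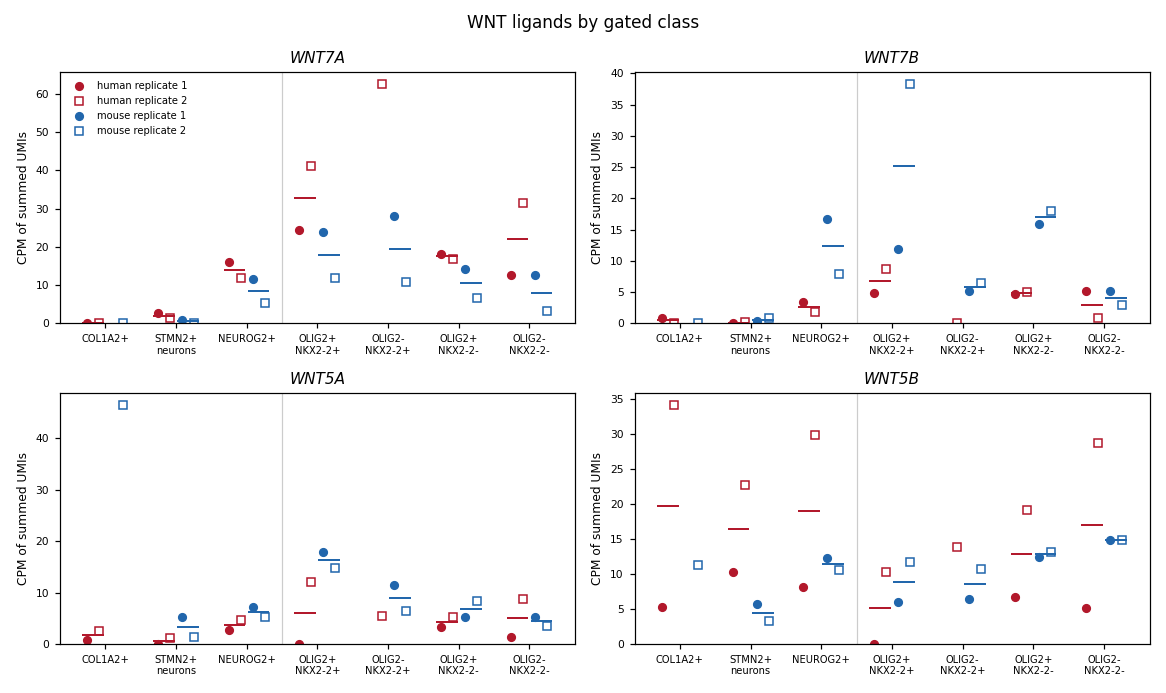
CPM of summed UMIs for WNT7A, WNT7B, WNT5A and WNT5B in each class, with human (red) and mouse (blue) parts as points (filled circle for replicate 1, open square for replicate 2) and a bar at the mean of the parts of a species. WNT7A and WNT7B lie near 0 in neurons and COL1A2-positive cells, WNT5A reaches 46.5 CPM in mouse COL1A2-positive cells, and WNT5B separates the human replicates.

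Of TCF7L2, LEF1 and AXIN2, TCF7L2 was lower in neurons of both species, LEF1 in human neurons, and AXIN2 had no call. TCF7L2, a DNA-binding partner of beta-catenin, stood at 6.85 and 5.85 CPM in human neurons, against 49.5 and 43.1 CPM in human OLIG2-only progenitors. In mouse it stood at 4.10 and 1.87 CPM in neurons, against 55.9 and 85.8 CPM in OLIG2-only progenitors. In all 4 parts the neuron class was the lowest of the classes present. TCF7L2 fell by 2.82 ± 0.29 on the log2 scale in human (edgeR adjusted p = 1.22e-07) and fell by 4.95 ± 0.32 in mouse (adjusted p = 3.59e-10). The interaction was 2.13 ± 0.46 (adjusted p = 0.00329), but it was 2.08 (adjusted p = 0.0588) without human replicate 2 and 1.09 (adjusted p = 0.132) without mouse replicate 2. It also depended on the sorting: with at least 1 UMI of STMN2 or COL1A2 in place of 3 it was 0.81 (adjusted p = 0.149), and with sorting on all UMIs of a cell it was 1.12 (adjusted p = 0.0624).

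LEF1, the second TCF/LEF factor among the genes, stood at 3.95 and 1.95 CPM in human neurons, against 12.2 and 15.8 CPM in human OLIG2-only progenitors. It fell by 2.28 ± 0.42 on the log2 scale (edgeR adjusted p = 0.000214), a call that did not hold without human replicate 2 (-1.63, adjusted p = 0.110). In mouse it was near the detection limit in both classes, with 0.630 and 0.374 CPM in neurons, against 0.550 and 0.626 CPM in OLIG2-only progenitors. AXIN2, a scaffold of the beta-catenin destruction complex and a common readout of canonical signalling, stood at 5.27 and 8.70 CPM in human neurons, against 4.50 and 9.84 CPM in human OLIG2-only progenitors. Mouse neurons held 8.19 and 11.5 CPM of AXIN2, against 5.32 and 10.6 CPM in mouse OLIG2-only progenitors. The log2 differences of AXIN2 were 0.05 ± 0.33 in human (adjusted p = 0.945) and 0.18 ± 0.31 in mouse (adjusted p = 0.662), and values overlapped across parts in both species, with neurons higher within both mouse parts.

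**Figure D3:**
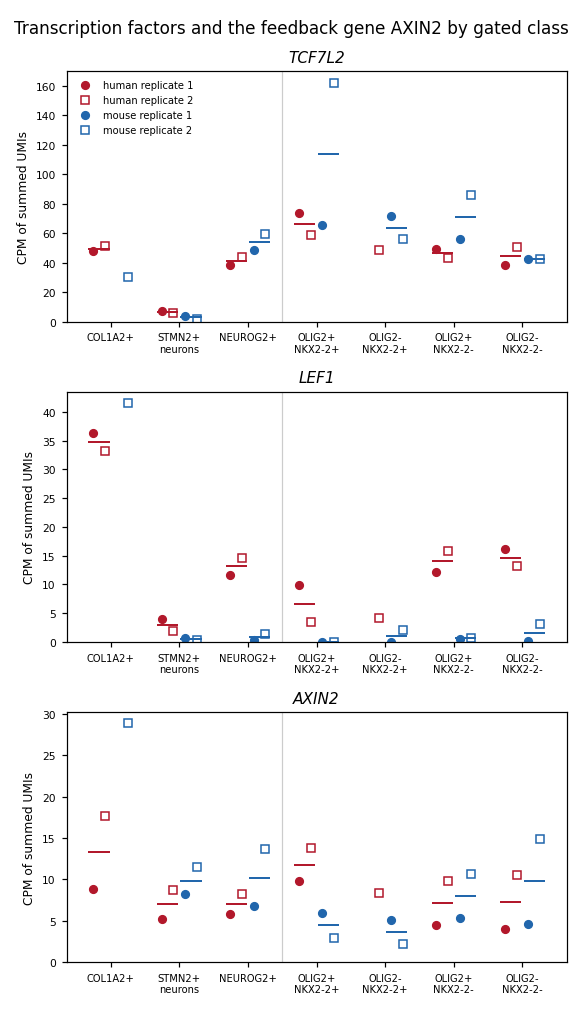
CPM of summed UMIs for TCF7L2, LEF1 and AXIN2 in each class, with human (red) and mouse (blue) parts as points (filled circle for replicate 1, open square for replicate 2) and a bar at the mean of the parts of a species. TCF7L2 is below 7 CPM in every neuron point, LEF1 is at 33.2 to 41.5 CPM in COL1A2-positive cells and at or below 3.05 CPM in every other mouse class, and AXIN2 shows no step between classes that all parts share.

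Over the 10 genes, 7 were lower and 0 higher in neurons than in OLIG2-only progenitors in human, where 19.3% of the 12455 genes tested were called lower and 25.4% higher. In mouse, 7 were lower and 0 higher, with 22.1% of all genes called lower and 28.8% higher. The 10 mouse genes include FRZB and LEF1, which had 3 and 6 UMIs in mouse OLIG2-only progenitors. The median log2 change of the 10 genes was -2.13 in human and -2.14 in mouse, against 0.10 and 0.13 over all genes tested. For the difference between species, 3 of the 10 were called (SFRP1, TCF7L2 and WNT5B), against 16.1% of all genes, and all 3 were positive. The members were picked by name, with earlier results of these data known, and share a pathway. These shares therefore describe the list and carry no test of it.

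**Figure D4:**
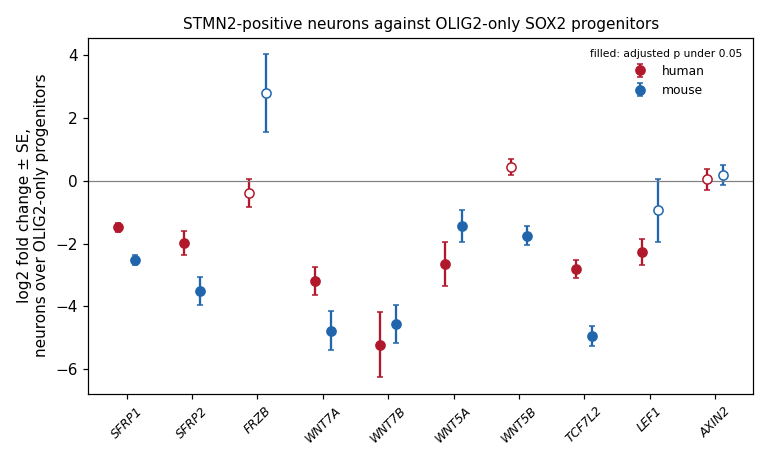
Log2 fold change of the 10 genes in STMN2-positive neurons against OLIG2-only progenitors, with its standard error, for human (red) and mouse (blue); filled points have an adjusted p below 0.05. SFRP1, SFRP2, WNT7A, WNT7B, WNT5A and TCF7L2 are filled below 0 in both species, WNT5B in mouse and LEF1 in human, while FRZB and AXIN2 are open.

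The rest of the pathway was read from a list of 84 other WNT genes, 69 of which were tested. That list too was chosen with earlier results of these data known. In neurons against OLIG2-only progenitors, 10 were higher and 19 lower in human, where 25.4% of all genes tested were higher and 19.3% lower. In mouse 7 were higher and 22 lower, where the shares of all genes were 28.8% and 22.1%. Of 16 receptors, 9 were lower in human and 11 in mouse, and 0 were higher in either species. Of 5 tested genes of the R-spondin arm, 2 were lower and 0 higher in each. The other groups were mixed. Of 14 genes of secretion and cytoplasm, 5 were higher and 2 lower in human, and 5 and 4 in mouse. Targets (10 tested) gave 2 higher and 3 lower in human, and 0 and 1 in mouse. Nuclear genes (8) gave 1 and 3, and 1 and 2. Ligands (8) gave 1 and 0, and 1 and 2. Secreted inhibitors (8) gave 1 and 0, and 0 and 0. FZD7, a Frizzled receptor, stood at 15.5 and 11.4 CPM in human neurons, against 97.4 and 102 CPM in human OLIG2-only progenitors (log2 change -2.85 ± 0.23, edgeR adjusted p = 8.36e-09). In mouse FZD7 stood at 6.62 and 2.24 CPM in neurons, against 34.8 and 28.8 CPM in OLIG2-only progenitors (-3.19 ± 0.29, adjusted p = 1.78e-08). FZD9 was lower in both species (-2.67 ± 0.24 in human and -3.30 ± 0.29 in mouse), and FZD2 (-1.90 ± 0.21) was among the leading human calls.

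Among other leading genes of the list, CCND1, which encodes cyclin D1 and is a known beta-catenin target, differed between species. It stood at 89.3 and 40.1 CPM in human neurons, against 675 and 758 CPM in human OLIG2-only progenitors (log2 change -3.48 ± 0.33). In mouse it stood at 134 and 61.1 CPM in neurons, against 84.5 and 116 CPM in OLIG2-only progenitors (-0.19 ± 0.31, edgeR adjusted p = 0.650), and the interaction was -3.29 ± 0.45 (adjusted p = 4.48e-05). TNFRSF19, a receptor gene listed as a WNT target, rose by 2.12 ± 0.26 in human neurons and fell by 2.62 ± 0.34 in mouse neurons, an interaction of 4.73 ± 0.42 (adjusted p = 4.54e-07). TCF7L1, a TCF factor known as a repressor, was lower in neurons of both species (-3.06 ± 0.38 in human and -4.37 ± 0.40 in mouse), and its interaction did not pass (1.31 ± 0.62, adjusted p = 0.167). The planar polarity gene CELSR1 was lower in both as well (-2.26 ± 0.32 in human and -3.07 ± 0.30 in mouse), with an interaction of 0.81 ± 0.47 (adjusted p = 0.274). The co-repressors TLE1 (1.27 ± 0.30) and TLE3 (-1.10 ± 0.24) gave the other leading interactions, human minus mouse.

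Human COL1A2-positive cells differed from human double-negative progenitors in 5 of the 10 genes. They were high in FRZB and LEF1, low in SFRP1 and SFRP2, and without WNT7A. FRZB stood at 283 and 163 CPM in human COL1A2-positive cells, against 16.8 and 42.2 CPM in human double-negative progenitors, and rose by 2.91 ± 0.41 on the log2 scale (edgeR adjusted p = 7.87e-05). In human replicate 2, a single double-negative cell held 59 of the 160 FRZB UMIs of its class; without that cell the level there was 27.0 CPM. At 7000 UMIs per cell, FRZB was detected in 69.3% (exact 95% interval 58.6 to 78.7) and 57.5% (49.6 to 65.1) of human COL1A2-positive cells, against 9.28% (6.20 to 13.2) and 16.0% (10.8 to 22.4) of human double-negative progenitors. Without thinning these shares were 81.8% and 76.6%, against 14.8% and 30.8%.

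LEF1 stood at 36.2 and 33.2 CPM in human COL1A2-positive cells, against 16.1 and 13.2 CPM in human double-negative progenitors. The groups did not overlap, and LEF1 rose by 1.32 ± 0.36 (edgeR adjusted p = 0.0155). The call did not hold without human replicate 1 (log2 change 1.37) or without human replicate 2 (1.27), when a single human part was left. With all parts it did not hold by DESeq2 (adjusted p = 0.104). Without a term for the library part in the fit, LEF1 was not called (edgeR adjusted p = 0.521), nor were FRZB (0.130) and SFRP1 (0.0962). SFRP2 stood at 23.9 and 37.6 CPM in human COL1A2-positive cells, against 380 and 422 CPM in human double-negative progenitors, and fell by 3.77 ± 0.47 (adjusted p = 1.05e-05). SFRP1 was at 45.1 and 66.4 CPM in human COL1A2-positive cells, against 124 and 153 CPM in human double-negative progenitors, and fell by 1.21 ± 0.16 (adjusted p = 2.89e-05). WNT7A had 0 UMIs in human COL1A2-positive cells and 173 in human double-negative progenitors, which makes it at least 30.7-fold lower with a floor of 3 counts over the group (adjusted p = 1.41e-05).

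In this human contrast 2 of the 10 genes were higher (7.94% of all genes tested were) and 3 were lower (7.19% of all genes were). AXIN2 did not pass, at 8.84 and 17.7 CPM in human COL1A2-positive cells, against 3.97 and 10.6 CPM in human double-negative progenitors (0.99 ± 0.36, edgeR adjusted p = 0.0671). Without mouse replicate 1 or mouse replicate 2, which share the fit, AXIN2 passed (adjusted p = 0.0409 and 0.0423). WNT5A (-1.36 ± 0.73), WNT5B (0.39 ± 0.26) and TCF7L2 (0.25 ± 0.25) did not pass either, and WNT7B had 1 UMI in COL1A2-positive cells and 25 in double-negative progenitors.

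In mouse, mouse replicate 2 alone held such cells, 33 in number, so their values have no replicate and no test. SFRP2 stood at 805 CPM there, against 191 CPM in the double-negative progenitors of the same part, which is the reverse of the human order. The 641 SFRP2 UMIs came from 18 of the 33 cells, and 110 of them from 1 cell. FRZB stood at 7.54 CPM (6 UMIs), against 2.18 CPM in double-negative progenitors. LEF1 was at 41.5 CPM in mouse COL1A2-positive cells, against 3.05 CPM in double-negative progenitors, close to its human COL1A2-positive level, and WNT5A was at 46.5 CPM (37 UMIs), against 3.56 CPM. The mesenchymal markers of these cells also differed between species: PRRX1 stood at 239 CPM in the mouse part, against 7.07 and 8.85 CPM in the human parts, and COL1A1 at 2630 CPM, against 209 and 270 CPM. Whether the mouse and human COL1A2-positive cells are the same type was not tested.

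From the rest of the list, 12 genes were higher and 11 lower of 69 in human COL1A2-positive cells against double-negative progenitors, where 7.94% of all genes were higher and 7.19% lower. CCND1 was at 29.2 and 27.2 CPM, against 603 and 424 CPM (log2 change -4.09 ± 0.38, edgeR adjusted p = 2.97e-07). The receptors FZD7 (-2.42 ± 0.27) and FZD3 (-1.72 ± 0.23) were lower too, and the ligand WNT4 had 3 UMIs, against 157 in double-negative progenitors, a ratio of 0.0359 by counts (exact 95% interval 0.00732 to 0.107).

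Between the SOX2-positive progenitor classes, 1 contrast had a call among the 10 genes. In human OLIG2-only against double-negative progenitors 0 of the 10 were called by edgeR, with 0.418% of all genes called; 0 had an unadjusted p below 0.05, and DESeq2 called 0. In mouse, 1 was called, with 0.442% of all genes called. It was WNT7B, at 16.0 and 17.9 CPM in mouse OLIG2-only progenitors, against 5.14 and 2.85 CPM in mouse double-negative progenitors. The classes did not overlap, and the rise was 2.10 ± 0.44 on the log2 scale (edgeR adjusted p = 0.0328). That call did not hold without mouse replicate 1 (2.64, adjusted p = 0.0513), without mouse replicate 2 (1.60, adjusted p = 1.00), by DESeq2 (adjusted p = 0.270), or with either other sorting rule (adjusted p = 0.111 and 0.360). The human OLIG2-only progenitors held 4.69 and 5.01 CPM of WNT7B, against 5.14 and 0.792 CPM in double-negative progenitors, and the species difference of the change, -1.40 ± 0.75, did not pass (adjusted p = 1.00).

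In mouse, OLIG2-only progenitors held 170 and 122 CPM of SFRP1, against 124 and 71.7 CPM in double-negative progenitors. Each OLIG2-only value lay above that of its own part, and the log2 difference was 0.55 ± 0.14 (edgeR adjusted p = 0.103); DESeq2 called it (adjusted p = 0.0422), as did edgeR with sorting on all UMIs of a cell (adjusted p = 0.00687). Mouse TCF7L2 was at 55.9 and 85.8 CPM, against 42.1 and 42.6 CPM in double-negative progenitors (0.67 ± 0.22, edgeR adjusted p = 0.281), and it passed without mouse replicate 1 (1.00, adjusted p = 0.0283). For the difference between species 0 of the 10 genes were called (0.0241% of all genes were), 2 had an unadjusted p below 0.05 (SFRP1 and TCF7L2), and DESeq2 called 0.

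The OLIG2 NKX2-2 double-positive class held few cells, and 0 of the 10 genes were called against OLIG2-only progenitors in human (0.00803% of all genes were), in mouse (1.00% of all genes were) or for the difference (0.00803%). Mouse double-positive progenitors had 0 UMIs of FRZB and 0 of LEF1. SFRP2 alone had an unadjusted p below 0.05, in each species, and DESeq2 called 0 in all 3. It stood at 128 and 99.7 CPM in human double-positive progenitors, against 230 and 549 CPM in human OLIG2-only progenitors (log2 difference -1.94 ± 0.49, edgeR adjusted p = 0.537). The mouse double-positive progenitors held 62.7 and 174 CPM, against 121 and 301 CPM in OLIG2-only progenitors (-1.11 ± 0.48, adjusted p = 0.337). Values overlapped across the mouse parts, but within each of the 4 parts SFRP2 was lower in double-positive cells. A lower SFRP2 in double-positive cells was already known from earlier work on these same libraries and gains no support here. The scaling moved this mouse contrast: the median of all genes was -0.18 with edgeR's scaling and -0.05 with DESeq2's size factors, a shift of 0.14, and the share of called genes that were higher was 11.2% with the first and 84.6% with the second. TCF7L2 reached its highest single level, 162 CPM, in the 16 double-positive cells of mouse replicate 2, against 65.6 CPM in mouse replicate 1. NKX2-2-only progenitors were missing from human replicate 1; WNT7A there had its highest level of any class, 62.6 CPM in human replicate 2, and stood at 28.1 and 10.7 CPM in mouse.

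NEUROG2-positive cells, in which the neurogenic programme has begun, gave no call among the 10 genes against OLIG2-only progenitors, which does not show that the classes are alike. By edgeR 0 of the 10 were called in human (0.49% of all genes were) and 0 in mouse (0.538%), with 1 unadjusted p below 0.05 in each species, and DESeq2 called 0. That gene was SFRP1, at 98.4 and 133 CPM in human NEUROG2-positive cells, against 124 and 168 CPM in human OLIG2-only progenitors (log2 difference -0.31 ± 0.14, adjusted p = 0.843), and at 118 and 90.4 CPM in mouse NEUROG2-positive cells, against 170 and 122 CPM (-0.46 ± 0.14, adjusted p = 0.281). SFRP1 was lower in NEUROG2-positive cells within each of the 4 parts. For the difference between species edgeR called 0 genes of all 12455, with 339 at an unadjusted p below 0.05 and 0 of the 10 among them, while DESeq2 called 1 gene and none of the 10. TCF7L2 was at 38.6 and 43.8 CPM in human NEUROG2-positive cells and 48.5 and 59.3 CPM in mouse, above every neuron value. From the rest of the list, SP8, a zinc-finger factor listed as a WNT target, was the single call, at 53.0 and 61.6 CPM in mouse NEUROG2-positive cells, against 27.0 and 32.1 CPM in mouse OLIG2-only progenitors (0.98 ± 0.18, adjusted p = 0.0151). SP8 stood at 0.188 CPM in human replicate 1 and 16.7 CPM in human replicate 2 OLIG2-only progenitors.

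Between species, FRZB and LEF1 were higher in human and WNT7B was lower in OLIG2-only progenitors and NEUROG2-positive cells. In neurons FRZB and LEF1 were not called in the main fit, though each passed under some alternatives. FRZB stood at 25.1 and 13.0 CPM in human OLIG2-only progenitors, against 0.367 and 0.209 CPM in mouse, with 204 human and 3 mouse UMIs; the ratio by counts was 65.0 (exact 95% interval 21.9 to 318; edgeR adjusted p = 0.00324). FRZB passed in double-negative progenitors (log2 difference 4.08 ± 0.59, adjusted p = 0.00636) and NEUROG2-positive cells (4.53 ± 1.04, adjusted p = 0.0166). In double-negative progenitors its adjusted p was 0.0692 without mouse replicate 1 and 0.0539 without mouse replicate 2, and in NEUROG2-positive cells it was 0.0504 without human replicate 1 and 0.0528 without mouse replicate 1. In double-positive progenitors FRZB had 31 human and 0 mouse UMIs, at least 8.88-fold higher in human with a floor of 3 counts over the group.

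LEF1 stood at 12.2 and 15.8 CPM in human OLIG2-only progenitors, against 0.550 and 0.626 CPM in mouse (log2 difference 4.43 ± 0.57, edgeR adjusted p = 0.00307), and at 11.7 and 14.5 CPM in human NEUROG2-positive cells, against 0.383 and 1.33 CPM in mouse (3.79 ± 0.61, adjusted p = 0.00508). No human value overlapped a mouse value in either class, and both calls held under every alternative run. LEF1 narrowly missed the threshold in double-negative progenitors (3.12 ± 0.94, adjusted p = 0.0505) and passed there by DESeq2 (adjusted p = 0.00525), without human replicate 2 (edgeR adjusted p = 0.0369) and under other alternatives. In mouse replicate 2 LEF1 reached 41.5 CPM in COL1A2-positive cells, and it had 285 UMIs over the 2674 cells used. Mouse replicate 1 held no COL1A2-positive cells and had 14 LEF1 UMIs over the 1811 cells used. How well LEF1 was counted in mouse replicate 1 was not tested.

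WNT7B stood at 4.69 and 5.01 CPM in human OLIG2-only progenitors, against 16.0 and 17.9 CPM in mouse (log2 difference -1.88 ± 0.43, edgeR adjusted p = 0.0164), and at 3.36 and 1.86 CPM in human NEUROG2-positive cells, against 16.7 and 7.88 CPM in mouse (-2.34 ± 0.66, adjusted p = 0.0336). The groups did not overlap, but the first call did not hold without mouse replicate 1 (log2 difference -1.87) or mouse replicate 2 (-1.90). The second did not hold without human replicate 2 (log2 difference -1.77) or mouse replicate 1 (-1.56). In double-negative progenitors WNT7B was not called, at 5.14 and 0.792 CPM in human, against 5.14 and 2.85 CPM in mouse. SFRP2 passed in double-negative progenitors, at 380 and 422 CPM in human, against 135 and 191 CPM in mouse (1.26 ± 0.36, adjusted p = 0.0413), and not without human replicate 1 (0.118), mouse replicate 1 (0.289) or mouse replicate 2 (0.198). It also passed in neurons, at 62.9 and 119 CPM in human, against 25.8 and 13.8 CPM in mouse (2.24 ± 0.52, adjusted p = 0.0370), and not without human replicate 1 (0.0518), human replicate 2 (0.109) or mouse replicate 2 (0.111).

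In counts, the species contrast called 2 of 10 genes in double-negative progenitors (26.2% of all genes were), 3 of 10 in OLIG2-only progenitors (29.6%), 3 of 10 in NEUROG2-positive cells (31.2%) and 1 of the 7 tested in neurons (17.3%). In double-positive progenitors 0 of the 3 tested were called by edgeR (11.6% of all genes were), 0 had an unadjusted p below 0.05 and DESeq2 called 0. These shares are near those of all genes, so the number of calls is not a result about these genes. SFRP1, AXIN2, WNT5A and TCF7L2 were called in 0 of the classes in which they were tested, as were WNT5B and WNT7A. TCF7L2 in double-negative progenitors gave the closest match, 38.3 and 50.7 CPM in human, against 42.1 and 42.6 CPM in mouse (-0.01 ± 0.33, edgeR adjusted p = 0.990).

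**Figure D5:**
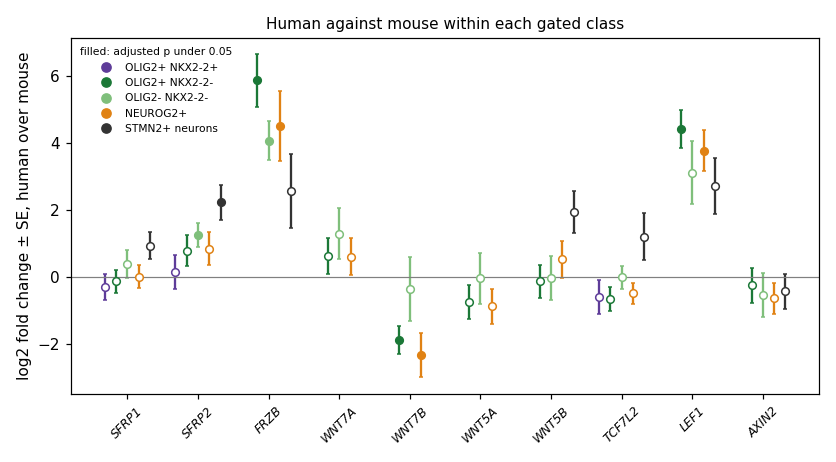
Log2 fold change, human over mouse, of the 10 genes in each class in which they were tested, with its standard error; filled points have an adjusted p below 0.05. FRZB and LEF1 are filled above 0 and WNT7B below 0 in OLIG2-only progenitors and NEUROG2-positive cells, while SFRP1, TCF7L2, AXIN2, WNT5A, WNT5B and WNT7A are open in every class.

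Among the other WNT genes, those with the smallest p in the species contrasts included CDX2, a caudal homeobox factor listed as a target. It stood at 38.8 and 14.7 CPM in human OLIG2-only progenitors and had 0 UMIs in mouse ones, at least 91.1-fold higher in human with a floor of 3 counts over the group. DKK3, of the Dickkopf family of secreted proteins, stood at 14.0 and 30.6 CPM in human double-negative progenitors, against 2.26 and 1.39 CPM in mouse (3.49 ± 0.57, edgeR adjusted p = 0.00811). SFRP5, a further SFRP, went the other way, with 0 human and 245 mouse UMIs in double-negative progenitors, at least 18.8-fold lower in human. CCND1 was higher in human OLIG2-only progenitors (2.77 ± 0.34, adjusted p = 0.00267), and the kinase gene GSK3B of the destruction complex was lower (-1.96, adjusted p = 0.00642).

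The genes most alike in pattern were found by correlating log2 levels over the 26 classes of the parts, centred within each part, among 5560 genes; the points share libraries, and the values are descriptive. SFRP1 was most like LFNG (r = 0.95), a modifier of Notch receptors. TCF7L2 was most like PTCH1 (r = 0.94), the Sonic hedgehog receptor, and TCF7L1 (0.93). WNT7A was most like RFX4 (0.94) and FGFR3 (0.93), FRZB was most like FOXD1 (0.94) and also resembled TWIST1 (0.87), and SFRP2 was most like PRSS23 (0.87). AXIN2 (RASSF1, 0.82) and WNT5B (UCHL5, 0.74) had weaker closest genes. Within single progenitors, SFRP1 and SFRP2 were detected together in 258 of 681 and 183 of 470 human cells and in 180 of 723 and 202 of 871 mouse cells at 7000 UMIs, which is 1.07, 1.09, 1.04 and 1.10 times the number given by their separate shares.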

How the data were processed

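The unit of every value the authors deposited is raw UMI counts per gene and cell, with 10x Genomics 3′ libraries per the labels' protocols. Cell Ranger 3.1.0 and the builds mm10 and hg38 are named per the submitters' processing notes; gene annotation and cell calling are not given in the sources used here. Gene entries differed in number: the human files listed 32739 and 56832 gene entries and the mouse files 27999 and 54087; the 2 parts of each species were thus counted on different annotations, which could shift single genes. Symbols were upper-cased and entries sharing a symbol were added.

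Cells with under 1000 UMIs, under 500 genes or over 10% of UMIs from mitochondrial genes were removed. Scrublet (scanpy 1.11.5, expected rate 5%) removed 13, 24, 5 and 32 cells, and shared barcodes of the mixed library were removed, leaving 2321, 1805, 1811 and 2674. Each cell was thinned to 7000 UMIs for class sorting only (394, 344, 67 and 153 shallower cells left out), with at least 3 UMIs asked of STMN2 or COL1A2 and at least 1 of the other genes. All UMIs of a class were then summed per part.

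Sums were tested with edgeR 4.0.16 (quasi-likelihood, TMM scaling, Benjamini-Hochberg over all genes, threshold 0.05). Class contrasts used 1 fit over all parts and classes of at least 10 cells, with the part as a block. Species contrasts used the 4 parts of 1 class. Low counts were filtered once per fit with edgeR's filterByExpr, so a gene could pass through 1 class or 1 species alone. The scripts were tested first on simulated data with known changes, with a spread that was set and not estimated from these parts. For human OLIG2-only against double-negative progenitors, 15.5% of 2-fold and 77.9% of 4-fold changes were recovered. For human double-positive against OLIG2-only progenitors the shares were 4.08% and 43.75%. DESeq2 1.42.0, other scaling, no count filter, other sorting rules, retained doublets, each part left out and the replicate block were alternatives.

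The members, the other WNT genes and the marker lists were chosen with earlier results of these data known. All 10 members are named; of the other WNT genes, up to 4 called genes per contrast by smallest p, named here in part; and for likeness the 3 highest correlations of members with at least 1000 UMIs, among genes with a mean of at least 20 CPM (10 CPM added before the log).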

Additional observations from a re-analysis of the deposited data

Results flagged for a closer look

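For 3 genes the change in STMN2-positive neurons against OLIG2-only progenitors differed between human and mouse, by the test of the interaction itself. For SFRP1 the difference, human minus mouse, was 1.04 on the log2 scale: the gene was lower in neurons in both species, and by less in human. For TCF7L2 it was 2.13, again with lower levels in neurons of both species and a smaller drop in human. For WNT5B it was 2.20, with a log2 change of 0.44 in human that did not pass while the mouse level fell by 1.76. Of 11 alternatives, the call was kept in 10 for SFRP1, 6 for TCF7L2 and 9 for WNT5B. Without the block of library part all 3 were lost (edgeR adjusted p = 0.442, 0.155 and 0.552). Neurons summed to 1448 and 2114 CPM of the neuronal markers in human and to 5370 and 6837 CPM in mouse, and to 2618 and 2698 CPM of the progenitor markers in human and to 902 and 827 CPM in mouse. Both sums also differed by species in the OLIG2-only progenitors. The progenitor markers reached 4781 and 7038 CPM there in the human parts, against 1314 and 2312 CPM in the mouse parts. The neuronal markers reached 43.2 and 118 CPM in the human parts, against 245 and 218 CPM. How far the difference between the neuron classes enters the 3 results was not tested. No outlying sample was looked for, since each species had 2 parts.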

How the results depend on the processing

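Of 32 calls on the 10 genes, 15 were kept under every alternative run, 17 were lost under at least 1, and 0 changed sign; 11 further values gained a call somewhere. With DESeq2's size factors or retained doublets 0 calls were lost. The replicate number as a block kept all 9 species calls and gained 1. Deviations of parts with the same number from their species means correlated at 0.231 to 0.381 over classes. However, number 1 is a mixed library and number 2 is not, and in both species the number 1 file listed fewer gene entries. A pairing of cultures cannot be told apart from these differences. Without the block of library part, 11 of 23 class calls were lost: the counts were 0 in place of 1 for OLIG2-only against double-negative progenitors in mouse, 0 in place of 3 for the species difference of neurons, and 2 in place of 5 for COL1A2-positive cells. At least 1 UMI of STMN2 or COL1A2 gave 0 for OLIG2-only against double-negative progenitors in mouse and 2 in place of 1 for neurons between species. Between species in neurons, DESeq2 gave 3, sorting on all UMIs 2 and 1 fit over all classes 2; in double-positive progenitors, no filter gave 1 and sorting on all UMIs 2, in place of 0.

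With 1 part left out at a time, the count ran from 0 to 1 for OLIG2-only against double-negative progenitors in mouse, 1 to 4 for the species difference of neurons, 6 to 7 for neurons in human, 6 to 8 for neurons in mouse and 4 to 6 for COL1A2-positive cells. Between species it ran from 0 to 3 in double-negative, 2 to 3 in OLIG2-only and 0 to 1 in double-positive progenitors, 1 to 3 in NEUROG2-positive cells and 0 to 1 in neurons.

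Among all genes, calls for OLIG2-only against double-negative progenitors numbered 52 in human and 55 in mouse by edgeR, against 28 and 26 by DESeq2. Calls for double-positive progenitors in mouse numbered 125 by edgeR, against 76 by DESeq2 and 13 with its size factors, and the shift of the median is printed with that contrast. Shares of cells depended on depth: 162 of 260 unthinned shares lay outside the interval of the thinned one. Genes under about 5 CPM rest on few UMIs.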
